A study of Mus musculus with 6 samples.

Results

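The 8 microRNA (miRNA) genes Mir200a, Mir200b, Mir429, Mir200c, Mir141, Mir203, Mir205 and Mir375, all known from epithelial cells, were followed in small RNA of whole mouse testis. The first 5 make up the miR-200 family. They are 8 of 1653 GENCODE mouse miRNA genes with at least 1 read, out of 2202 annotated. A read was counted for a gene when it had 18 to 26 nt and lay on the sense strand of the gene without a mismatch. The genes were chosen by their measured levels in these libraries, so all levels and ratios below are a description. The arm, start, length and added bases of the reads were not used to choose them.

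The knockout testes were labelled as lacking Dnmt3L, which helps the enzymes of de novo DNA methylation, or Miwi2, a PIWI protein that carries piRNAs into the nucleus of fetal male germ cells. The 6 libraries were Dnmt3L knockout (KO) and wild-type (WT) testes at 16.5 days post coitum (dpc), Dnmt3L KO and WT testes at 10 days post partum (dpp), and Miwi2 KO and WT testes at 10 dpp. All animals were on a C57BL/6 background, the WT animals were littermates, and neither the knockout alleles nor the cells that lose the gene are given in the sources used here. Each library was 1 pool, of 7 or 8 mice at 16.5 dpc and 3 mice at 10 dpp, so no group has a replicate and no difference has a test. Intervals are 95% exact intervals and cover counting error only, because each group is 1 pool. The reads carry no molecular identifiers, so copies of a molecule count as separate reads. The intervals may therefore be too narrow even for counting error.

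MicroRNAs guide Argonaute proteins to messenger RNAs that pair with their seed, the bases near the 5′ end. The miR-200 family, made from a pair of loci, keeps epithelial cells in their epithelial state by repressing the transcription factors Zeb1 and Zeb2. Mir203 is best known from the differentiating layers of skin, Mir205 from stratified epithelia and glands, and Mir375 from pancreatic islets and other endocrine cells.

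The mature sequences show why the family is counted in groups. Bases 2 to 8, the seed, are in capitals, and the sequences are those of RefSeq on GRCm38.p6, written 5′ to 3′. Mir200b, Mir200c and Mir429 share 1 seed.
mmu-miR-200b-3p: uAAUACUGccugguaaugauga
mmu-miR-200c-3p: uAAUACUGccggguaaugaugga
mmu-miR-429-3p: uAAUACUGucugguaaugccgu
Mir200a and Mir141 share another, and it differs from the first at a single base.
mmu-miR-200a-3p: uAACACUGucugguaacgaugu
mmu-miR-141-3p: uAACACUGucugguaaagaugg
The seeds of Mir203 and Mir205 are unrelated to these.
mmu-miR-203-3p: gUGAAAUGuuuaggaccacuag
mmu-miR-205-5p: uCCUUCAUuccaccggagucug
Counted from 1 at the 5′ end, with the base of Mir200a first, Mir200a and Mir200b differ by C4U in the seed and by U9C, C17U and U22A outside it. Mir200a and Mir141 differ only by C17A and U22G over the 22 bases compared, an identity of 90.9%, and Mir200b and Mir200c only by U11G and A22G, also 90.9%. Each seed group therefore joins genes of both loci, and the closest relatives of Mir200a, Mir200b, Mir200c and Mir141 lie on the other chromosome. Mir429 is the exception. It differs at 4 bases from Mir200a and from Mir200b of its own locus, and at 5 from Mir200c and from Mir141.

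The first locus holds Mir200a, Mir200b and Mir429 within 1846 nt at chr4:156053905-156055750 of GRCm38, on the minus strand, inside an intron of Ttll10. Mir200a and Mir200b also lie in an intron of the noncoding transcript Gm13648 and Mir429 in an exon of it. The second holds Mir200c and Mir141 within 477 nt at chr6:124717914-124718390, on the minus strand in an intron of Gm15884, a noncoding transcript; part of Mir141 overlaps an exon of Gm29008. Mir203 is intergenic at chr12:112130880-112130955 on the plus strand, and the nearest protein-coding gene, Aspg, is 3321 nt away. Mir205 lies in an exon of the noncoding transcript 4631405K08Rik at chr1:193507463-193507530 on the minus strand. Mir375 is intergenic at chr1:74900658-74900721 on the minus strand, 1350 nt from Cfap65. No read of the 8 genes was shared with another miRNA gene.

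The libraries held 28701563 to 47232494 reads, of which 12101706 to 24433370 lay in miRNA genes. Levels are reads per 1e6 miRNA reads (RPM), and 3 counts correspond to 0.123 to 0.248 RPM. The 2 Dnmt3L libraries of 10 dpp stood apart in composition: 80.2% of the 18 to 26 nt reads lay in miRNA genes in the Dnmt3L KO and 74.3% in its WT, against 48.2% to 60.6% in the other 4 libraries. The testis origin showed in Mir202, a Sertoli cell miRNA, at 103 to 800 RPM and in the germ-cell Mir290 cluster at 60.8 to 981 RPM.

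The 8 genes were a small share of testis miRNA. Together they made 0.0306% of miRNA reads in the Dnmt3L KO and 0.0355% in the WT at 16.5 dpc, 0.0956% in the Dnmt3L KO and 0.0507% in the WT at 10 dpp, and 0.0987% in the Miwi2 KO and 0.109% in the Miwi2 WT. The share was lowest in both fetal libraries and highest in both Miwi2 libraries. Per 1e6 of all reads the Dnmt3L KO of 10 dpp was highest instead, at 722, with 380 in the Miwi2 KO and 432 in the Miwi2 WT. In whole testis, fewer cells of a type and less RNA per cell cannot be told apart.

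Mir200b, with 13688 reads over the 6 libraries, was the most read gene of the family. It stood at 62.5 RPM in the Dnmt3L KO and 34.4 RPM in the WT at 16.5 dpc. At 10 dpp it reached 209 RPM in the Dnmt3L KO and 109 RPM in the WT, and 148 RPM in the Miwi2 KO and 180 RPM in the Miwi2 WT. All 4 libraries of 10 dpp were above both fetal ones, and no counting intervals of neighbours in this order overlapped.

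Mir200a, made from the same locus, had 8.51 and 6.69 RPM in the Dnmt3L KO and WT at 16.5 dpc, 85.4 and 40.6 RPM in the Dnmt3L KO and WT at 10 dpp, and 106 and 75.7 RPM in the Miwi2 KO and WT. Mir429 had 7.68 and 16.3 RPM in the Dnmt3L KO and WT at 16.5 dpc, 158 and 103 RPM in the Dnmt3L KO and WT at 10 dpp, and 146 and 85.1 RPM in the Miwi2 KO and WT. Both were low before birth and at least 40.6 RPM in every library of 10 dpp. The fetal values of Mir200a overlapped in their intervals (6.95 to 10.3 RPM in the KO, 5.33 to 8.30 RPM in the WT). No other neighbours in the order of either gene did, although those of Mir429 in the Dnmt3L KO and the Miwi2 KO of 10 dpp nearly met.

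The Mir200c/Mir141 locus gave far fewer reads. Mir200c had 472 reads over all libraries, at 2.73 and 2.02 RPM in the Dnmt3L KO and WT at 16.5 dpc, 13.2 and 1.35 RPM in the Dnmt3L KO and WT at 10 dpp, and 1.67 and 4.0 RPM in the Miwi2 KO and WT. Mir141 had 3.14 and 5.24 RPM in the Dnmt3L KO and WT at 16.5 dpc, 51.6 and 6.47 RPM in the Dnmt3L KO and WT at 10 dpp, and 14.4 and 35.6 RPM in the Miwi2 KO and WT. Both genes were highest in the Dnmt3L KO of 10 dpp and next in the Miwi2 WT. For Mir200c, every pair of neighbours from the Miwi2 WT downwards overlapped in its intervals. For Mir141, the Dnmt3L WT of 10 dpp overlapped the WT of 16.5 dpc, which overlapped the KO of that age.

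Mir203 had 33.5 and 66.6 RPM in the Dnmt3L KO and WT at 16.5 dpc, 166 and 206 RPM in the Dnmt3L KO and WT at 10 dpp, and 442 and 322 RPM in the Miwi2 KO and WT. Its order was fetal, then Dnmt3L, then Miwi2 libraries, with no overlap of neighbouring intervals. Mir205 had 73.4 and 56.3 RPM in the Dnmt3L KO and WT at 16.5 dpc, 63.9 and 10.6 RPM in the Dnmt3L KO and WT at 10 dpp, and 73.4 and 118 RPM in the Miwi2 KO and WT. The Dnmt3L WT of 10 dpp lay alone below the other 5 libraries. The intervals of the Dnmt3L KO of 16.5 dpc and the Miwi2 KO overlapped, as did those of the Dnmt3L KO of 10 dpp and the Dnmt3L WT of 16.5 dpc. Mir375 had 115 and 168 RPM in the Dnmt3L KO and WT at 16.5 dpc, 209 and 29.6 RPM in the Dnmt3L KO and WT at 10 dpp, and 55.3 and 274 RPM in the Miwi2 KO and WT. The low libraries of Mir375 were the Dnmt3L WT and the Miwi2 KO of 10 dpp, and no neighbouring intervals overlapped. Levels of different miRNAs also carry differences in ligation and amplification between sequences.

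**Figure D1:**
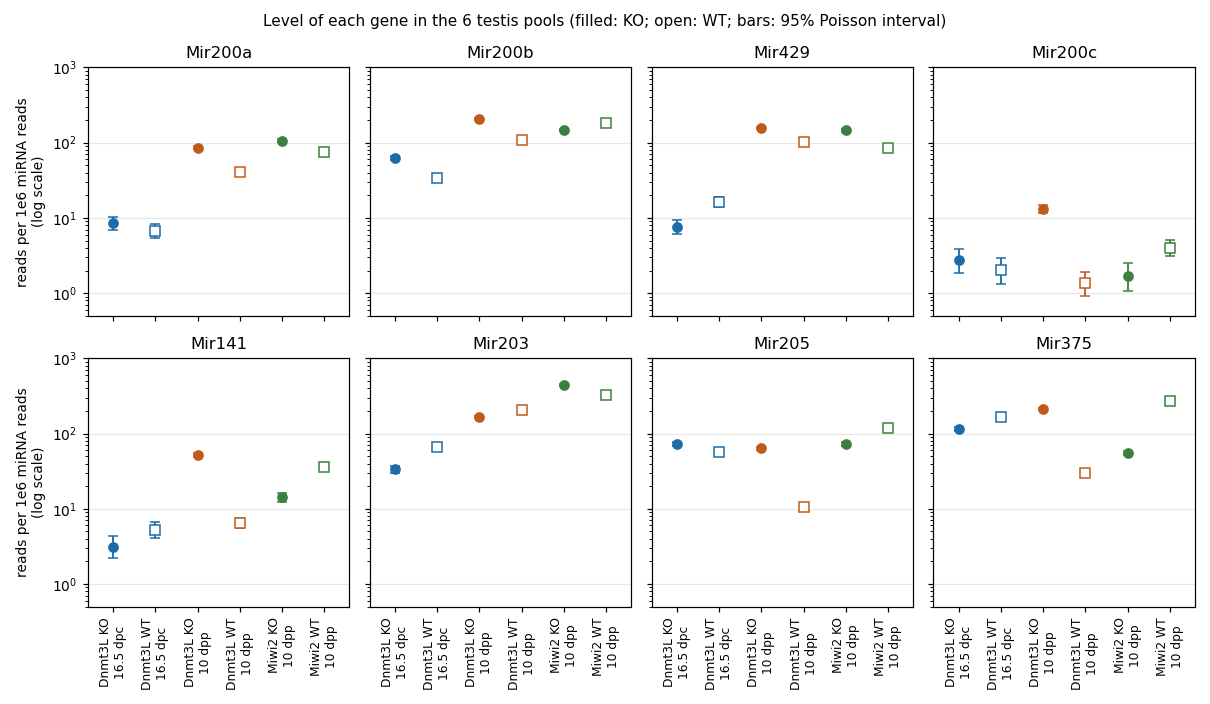
Level of each gene in the 6 pools, in reads per 1e6 miRNA reads on a log scale; filled points are KO and open points WT pools, colours mark the 3 pairs, and bars are 95% Poisson intervals. Mir200a, Mir200b, Mir429 and Mir203 are higher in all 4 libraries of 10 dpp than in both fetal ones, while Mir205 and Mir375 are lowest in the Dnmt3L WT of 10 dpp (10.6 and 29.6 RPM).

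A ratio was called only when its log2 size passed 2.53 (5.79-fold), the size that 95% of 315 miRNA genes stayed within when the Miwi2 WT of 10 dpp was set against the Dnmt3L WT of 10 dpp, counting genes with at least 1000 reads in both together. These are different lines, so the limit holds differences of line and library as well as of pools. Genes under 1000 reads in a comparison were not called.

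Of the 3 KO against WT pairs, Dnmt3L testes at 10 dpp gave the largest ratios. Mir141 was 7.98-fold higher in the KO (95% interval 6.75 to 9.49), Mir375 7.07-fold (6.54 to 7.66) and Mir205 6.00-fold (5.25 to 6.88), and these 3 passed the limit. Between the WT pools that set the limit, Mir205 (11.1-fold) and Mir375 (9.27-fold) differed more than between KO and WT, and Mir141 (5.51-fold) less. In the Dnmt3L pair Mir200c was 9.77-fold higher in the KO (6.80 to 14.5) on 319 reads, under the count minimum. Mir200a (2.10-fold), Mir200b (1.92-fold) and Mir429 (1.53-fold) were higher by less than the limit, and Mir203 was 0.808-fold (0.774 to 0.844), a direction that turned with TMM scaling (log2 ratio 0.035). So 3 of the 7 members with enough reads were called higher and 0 lower. Over all 296 miRNA genes compared, 1.35% were called higher, 23.6% lower and 25.0% in either direction, and the members' median log2 ratio was 1.07 against 0.25 over all genes.

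The lower calls come mostly from predicted genes. Of the 296 genes, 72 carry no Mir name, and 66 of these were called lower. With the limit taken over Mir-named genes only, an alternative added after the data were seen, it became 2.87, and 1 member, Mir141, passed it. Over the 12 alternatives tried, Mir205 missed the limit in 8, Mir375 in 3 and Mir141 in 2, in 1 of which Mir141 had too few reads after thinning. Mir141, Mir375 and Mir205 stood 2.75, 2.57 and 2.33 log2 units above the median of all genes, a distance that no common scaling factor changes. It does depend on the genes in the median, which was 0.25 over all genes and 0.41 over Mir-named genes only. In the same pair the 14 X-linked germ-cell miRNA genes summed to 14543 RPM in the KO and 51946 RPM in the WT, and their part in the members' ratios was not tested.

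The loci of the miR-200 family differed in this pair. The Mir200c/Mir141 locus summed to 64.8 RPM in the KO and 7.82 RPM in the WT, 8.29-fold higher (7.12 to 9.70). The Mir200a/Mir200b/Mir429 locus summed to 452 RPM in the KO and 253 RPM in the WT, 1.79-fold (1.73 to 1.84). The family sum was 517 RPM in the KO and 261 RPM in the WT, 1.98-fold (1.92 to 2.04).

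At 16.5 dpc no member passed the limit between Dnmt3L KO and WT testes, and 4 of 8 had enough reads; over all 271 genes 0.738% were higher past it, 1.48% lower and 2.21% either way. Mir200b was 1.82-fold (1.61 to 2.05), Mir205 1.30-fold (1.18 to 1.44), Mir375 0.683-fold (0.637 to 0.731) and Mir203 0.502-fold (0.445 to 0.567). On fewer reads, Mir429 was 0.472-fold and Mir141 0.599-fold, while the intervals of Mir200a (0.943 to 1.72) and Mir200c (0.780 to 2.37) took in equal levels. The family sum was 84.5 RPM in the KO and 64.6 RPM in the WT, 1.31-fold (1.19 to 1.44). In both directions the members stayed under the limit.

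Between Miwi2 KO and WT testes, 0 of the 6 members with enough reads passed the limit, and over all genes 0.643% of 311 did. Mir375 came closest, 0.201-fold (0.187 to 0.217), and only 2 of the 311 genes had a lower ratio. Mir141 was 0.403-fold (0.343 to 0.472) and Mir200c 0.418-fold (0.252 to 0.672), both under the count minimum. Mir205 was 0.623-fold and Mir200b 0.822-fold, whereas Mir429 was 1.71-fold, Mir200a 1.40-fold and Mir203 1.37-fold. The family sum was 416 RPM in the KO and 380 RPM in the WT (1.09-fold, 1.06 to 1.13), with members of the family on both sides of it, and it turned to a log2 ratio of -0.057 when the 10 genes with most reads were left out of the scaling. Mir375 passed the limit of each of the 3 other scalings, with a log2 ratio of -2.34 when scaled to all reads.

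Between ages, in Dnmt3L WT testes at 10 dpp against 16.5 dpc, Mir429 (6.35-fold, 5.50 to 7.36) and Mir200a (6.07-fold, 4.85 to 7.68) were higher past the limit. Mir200b (3.17-fold) and Mir203 (3.09-fold) were higher by less. Mir375 was 0.176-fold (0.162 to 0.192) and Mir205, on fewer reads, 0.189-fold (0.163 to 0.218). Of 5 members with enough reads 2 were called, both higher, and over all 297 genes 8.08% were called higher, 12.8% lower and 20.9% in either direction. Mir375, at a log2 ratio of -2.50, lay just inside the limit, and it was called lower without the 10 genes with most reads in the scaling (-2.55, limit 2.20) and with reads of 20 to 23 nt (-2.60, limit 2.51). The ratios of Mir205 and Mir375 use the low Dnmt3L WT library of 10 dpp. In the KO of this line Mir205 was 63.9 RPM at 10 dpp and 73.4 RPM at 16.5 dpc, and Mir375 was 209 RPM at 10 dpp and 115 RPM at 16.5 dpc.

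The WT pools of 10 dpp also differed widely from each other. The Miwi2 WT held 11.1-fold more Mir205 than the Dnmt3L WT (9.72 to 12.6), 9.27-fold more Mir375 (8.57 to 10.0), 5.51-fold more Mir141 (4.62 to 6.60) and 2.96-fold more Mir200c. Mir200a (1.86-fold), Mir200b (1.65-fold), Mir203 (1.57-fold) and Mir429 (0.823-fold) differed less, and the first 3 of these turned below 1 with TMM scaling. This pair sets the limit, so nothing is called in it; 5.08% of its 315 genes lie past the limit by construction, 4.44% higher and 0.635% lower in the Miwi2 WT.

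**Figure D2:**
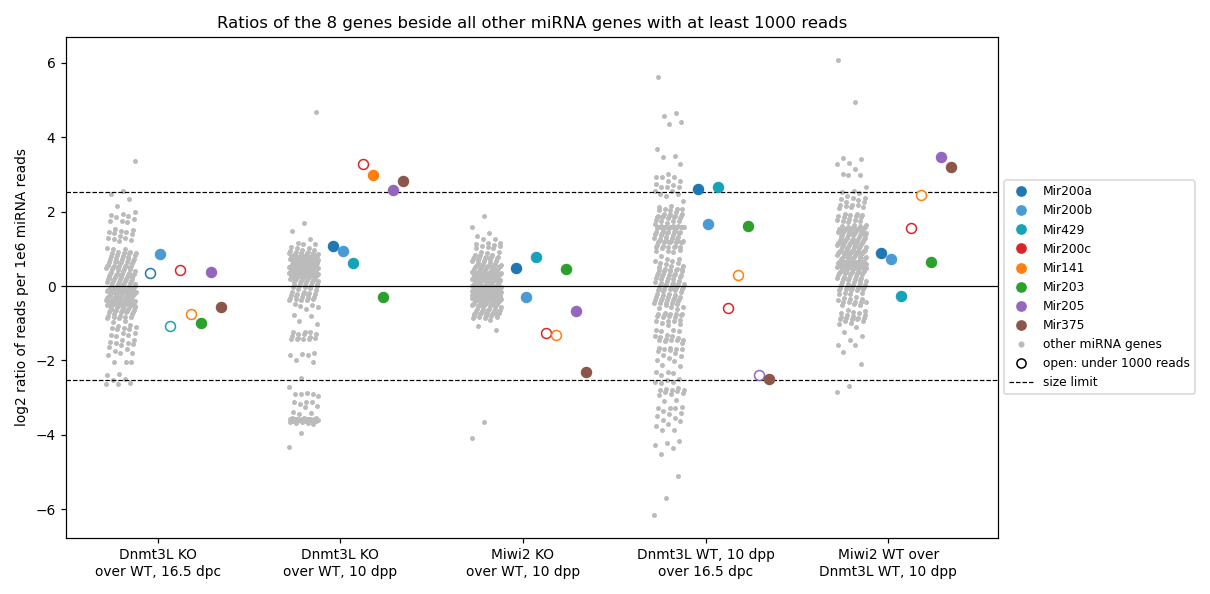
Log2 ratio of each gene (coloured) in the 5 comparisons, beside all other miRNA genes with at least 1000 reads in the comparison (grey); open points have fewer reads and dashed lines mark the limit of 2.53. Mir141, Mir375, Mir205 and Mir200c are high in the Dnmt3L pair of 10 dpp and in the pair of WT pools, and all 4 lie below 0 in the Miwi2 pair. The median over all genes compared was 0.25, 0.66 and -0.09 in these pairs, so the directions alone do not set the 4 genes apart.

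Set side by side, the 4 libraries of 10 dpp divide the genes. Mir205, Mir200c, Mir375 and Mir141, the wide group, spread 11.1-, 9.77-, 9.27- and 7.98-fold between their highest and lowest library. Mir203, Mir200a, Mir200b and Mir429 spread 1.85- to 2.66-fold. The median over 353 miRNA genes was 3.28-fold. Among these 353 genes Mir205, Mir375 and Mir141 ranked only 86, 91 and 100 by spread, so many other genes spread more widely. The Dnmt3L WT was the lowest library for all 4 genes of the wide group, so their higher level in the Dnmt3L KO follows from that. All 4 were also lower in the Miwi2 KO than in its WT. For Mir205 and Mir375 this too follows, because the Miwi2 WT was their highest library. The share of all miRNA genes with these directions was not counted. With WT pools this far apart and 1 pool a group, genotype and pool cannot be told apart for the wide group.

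Markers of multiciliated and meiotic cells were set beside the wide group. Mir449a, best known from multiciliated cells and from male germ cells in meiosis, had at 10 dpp 127 RPM in the Dnmt3L KO and 4.91 RPM in the WT, and 8.99 RPM in the Miwi2 KO and 152 RPM in the Miwi2 WT. Mir449c of the same cluster had 33.0 RPM in the Dnmt3L KO and 1.31 RPM in the WT, and 6.97 RPM in the Miwi2 KO and 88.6 RPM in the Miwi2 WT. Mir449a was the gene with the highest ratio of all in the Dnmt3L pair of 10 dpp (25.9-fold, 21.6 to 31.3), followed by Mir141, Mir375 and Mir205, and it was 0.0591-fold in the Miwi2 pair. Mir34c differed less, with 292 RPM in the Dnmt3L KO and 90.6 RPM in the WT, and 276 RPM in the Miwi2 KO and 437 RPM in the Miwi2 WT. Mir34b had 20.2 RPM in the Dnmt3L KO and 8.10 RPM in the WT, but 21.3 RPM in the Miwi2 KO and 21.1 RPM in the Miwi2 WT. At 16.5 dpc Mir34b stood at 208 RPM in the Dnmt3L KO and 40.7 RPM in the WT, while Mir34c stood at 548 and 760 RPM. The list thus did not move as a whole.

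All 5 genes of that list were found. Its sum was 762 and 808 RPM in the Dnmt3L KO and WT at 16.5 dpc, 472 and 105 RPM in the Dnmt3L KO and WT at 10 dpp, and 313 and 699 RPM in the Miwi2 KO and WT, with Mir449b at 0 in 4 libraries. Over the 6 libraries the log2 levels of Mir141 and Mir449a had a Pearson r of 0.96. With Mir449a, the other genes of the wide group had r of 0.77 (Mir200c), 0.65 (Mir375) and 0.45 (Mir205), and those of the narrow group 0.74 (Mir200b), 0.65 (Mir200a), 0.59 (Mir429) and 0.51 (Mir203), so the values of the groups overlap. They describe 6 points that share libraries and scaling. The part of these cells in the members' levels was not tested.

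**Figure D3:**
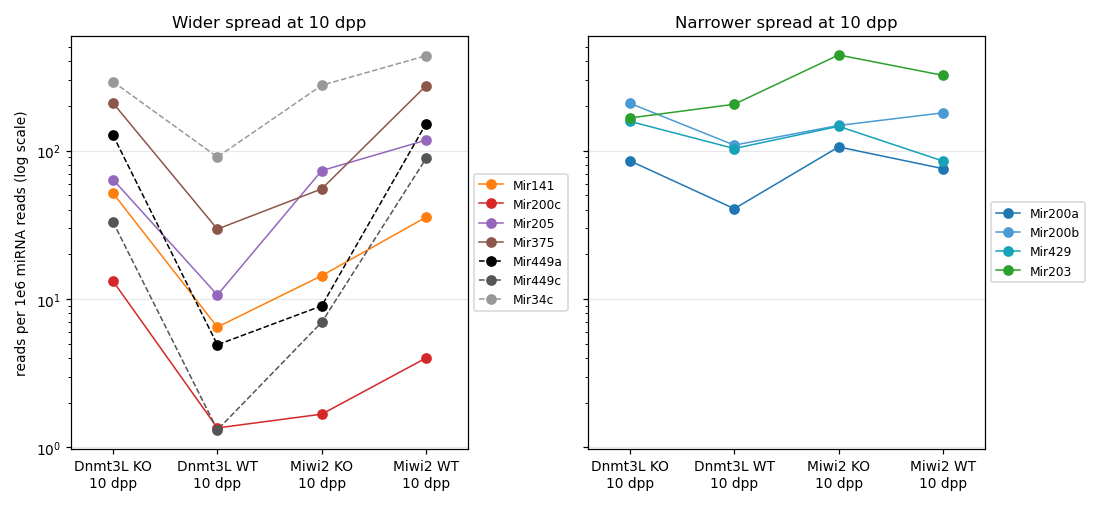
Levels at 10 dpp in reads per 1e6 miRNA reads, log scale, 1 point per pool with lines joining the points of a gene; the left panel holds the members with a wide spread and, dashed, Mir449a, Mir449c and Mir34c, the right panel the other members. Mir449a stands at 152 RPM in the Miwi2 WT and 4.91 RPM in the Dnmt3L WT, and Mir375 at 274 RPM in the Miwi2 WT and 29.6 RPM in the Dnmt3L WT. Mir34b and Mir449b of the multiciliated and meiotic list are not drawn. Mir34b had 20.2 RPM in the Dnmt3L KO and 8.10 RPM in the WT, and 21.3 RPM in the Miwi2 KO and 21.1 RPM in the Miwi2 WT.

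Other markers were looked at in the same way. The 8 further epithelial miRNA genes (Mir182, Mir183, Mir96, Mir31, Mir192, Mir194-1, Mir194-2 and Mir215) summed to 2757 RPM in the Dnmt3L KO and 4898 RPM in the WT of 10 dpp, a median log2 ratio of -0.91 over the 4 with enough reads and 0 past the limit. The list was divided in this pair. Mir182, which had most of its reads, stood at 1452 RPM in the KO and 3701 RPM in the WT, and Mir183, Mir96 and Mir31 were also lower in the KO. Mir192 stood at 1055 RPM in the KO and 723 RPM in the WT, and Mir194-1 (22.7 RPM in the KO and 12.5 RPM in the WT), Mir194-2 (27.5 and 15.8 RPM) and Mir215 (4.71 and 2.13 RPM) were also higher in the KO. The list's sums were 2994 RPM in the Miwi2 KO and 4171 RPM in the Miwi2 WT, and 3814 and 6318 RPM in the Dnmt3L KO and WT at 16.5 dpc. The single liver marker found had 47 reads in the Miwi2 KO and 299 in the Miwi2 WT, and 0 to 8 in the Dnmt3L libraries. Across the libraries the neuroendocrine list (the Mir7 genes) summed to 2.10 to 11.7 RPM, the neural list to 4.71 to 69.5 RPM, the muscle list to 63.5 to 613 RPM, the erythroid list to 25.1 to 103 RPM, the white blood cell list to 117 to 241 RPM, the endothelial marker to 766 to 1860 RPM and the peritubular list to 23108 to 48942 RPM. The part of any of these cells in the members' levels was not tested.

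Ratios inside a library need no scaling. The Mir200c/Mir141 locus gave 0.0746 reads per read of the other locus in the Dnmt3L KO and 0.127 in the WT at 16.5 dpc, 0.143 in the Dnmt3L KO (0.136 to 0.152) and 0.0309 in the WT at 10 dpp, and 0.0401 in the Miwi2 KO and 0.116 in the Miwi2 WT (0.107 to 0.126). The Dnmt3L WT and the Miwi2 KO of 10 dpp stood lowest. Mir141 gave 1.15 reads per Mir200c read in the Dnmt3L KO (0.703 to 1.89) and 2.60 in the WT (1.62 to 4.30) at 16.5 dpc, 3.91 in the Dnmt3L KO (3.43 to 4.47) and 4.79 in the WT (3.27 to 7.20) at 10 dpp, and 8.58 in the Miwi2 KO (5.61 to 13.7) and 8.90 in the Miwi2 WT (6.96 to 11.5). The interval of the fetal KO takes in equality, and that of the fetal WT overlaps both Dnmt3L libraries of 10 dpp.

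By seed, Mir200b, Mir200c and Mir429 gave 6.26 reads per read of Mir200a and Mir141 in the Dnmt3L KO and 4.41 in the WT at 16.5 dpc, 2.77 in the Dnmt3L KO and 4.54 in the WT at 10 dpp, and 2.46 in the Miwi2 KO and 2.42 in the Miwi2 WT. Within the larger locus the balance moved too. Mir200b gave 8.13 reads per read of Mir429 in the Dnmt3L KO at 16.5 dpc (6.55 to 10.2) and 2.11 in the WT, 1.32 in the Dnmt3L KO and 1.05 in the WT at 10 dpp, and 1.01 in the Miwi2 KO and 2.11 in the Miwi2 WT. Mir375 gave 3.42 and 2.52 reads per Mir203 read in the Dnmt3L KO and WT at 16.5 dpc, 1.26 and 0.144 in the Dnmt3L KO and WT at 10 dpp, and 0.125 and 0.852 in the Miwi2 KO and WT. The Mir375 to Mir203 ratio thus spanned a wider range at 10 dpp than any other of these ratios.

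**Figure D4:**
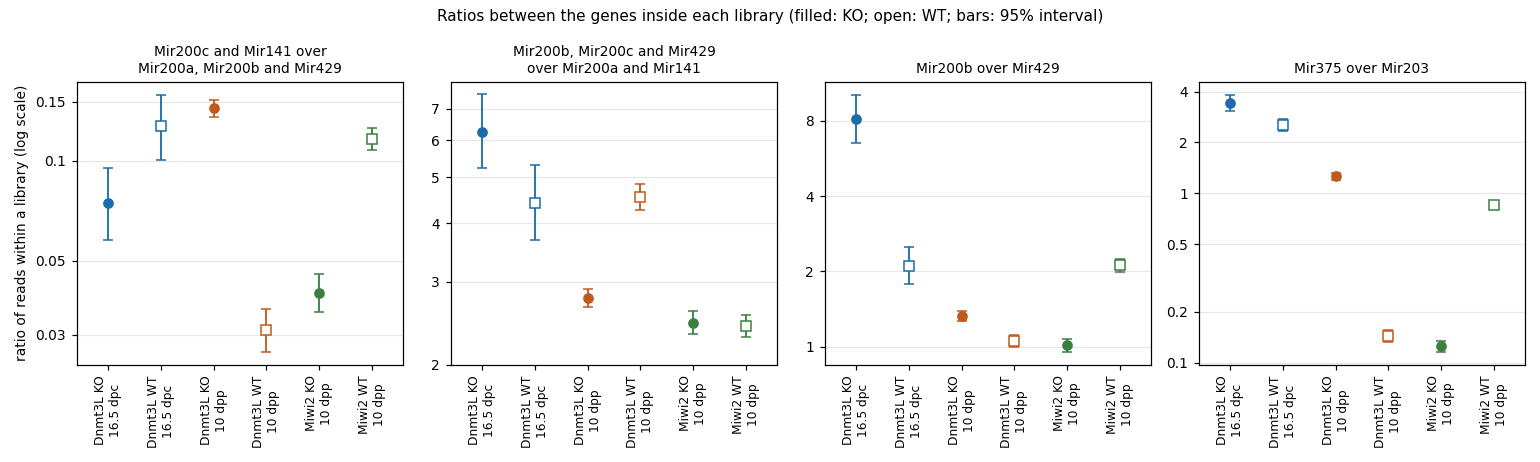
Ratios of reads inside each library, log scale; filled points are KO and open points WT pools, with 95% intervals. The locus ratio (left panel) is lowest in the Dnmt3L WT (0.0309) and the Miwi2 KO (0.0401) of 10 dpp, and Mir200b over Mir429 is highest in the Dnmt3L KO of 16.5 dpc (8.13).

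Arm use was measured as the share of a gene's reads from the 5p side of the hairpin. Mir205 was the only member read mainly from its 5p arm, 98.8% of 6373 reads. Mir200b (2.22%), Mir141 (4.01%), Mir203 (1.13%) and Mir375 (1 of 14390 reads) came from the 3p arm. Mir429 had 0 of 9845 reads from the 5p arm, with an upper exact 95% bound of 0.0375%, and 3 counts would be 0.0305%. Mir200c had 0 of 472, with an upper bound of 0.778%, and 3 counts would be 0.636%.

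Mir200a used its 5p arm more than the other 3p genes, in 10.0% of its 5893 reads. Its 5p share was 27.2% (18.9 to 36.8) in the Dnmt3L KO and 30.1% (20.5 to 41.2) in the WT at 16.5 dpc, 5.73% (4.71 to 6.88) in the Dnmt3L KO and 7.46% (5.90 to 9.27) in the WT at 10 dpp, and 12.0% (10.4 to 13.8) in the Miwi2 KO and 13.0% (11.3 to 14.9) in the Miwi2 WT. The intervals of KO and WT overlapped in each pair, and those of the 3 pairs did not overlap each other. Age, line and library cannot be told apart in this order of the pairs.

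The 5′ start sets the seed, and among exact reads it was nearly fixed in 7 genes. The most used arm began at the annotated base in 97.6% (Mir141) to 99.9% (Mir205) of exact reads of the miR-200 family and Mir205, and 97.1% of exact Mir375 reads began at its most frequent base. These shares leave out reads with an added base. For Mir200b in the Dnmt3L KO of 10 dpp, 324 left-out reads began 1 nt later and carried an added T after 22 matching bases. Exact reads of that start and 22 nt numbered 31 there. Mir203 used a pair of starts. Over all libraries 60.4% of its 3p reads began at the annotated base and 39.2% 1 nt later, which moves the seed by 1 base. The most frequent reads of the annotated and the later start are shown, with bases 2 to 8 of each read in capitals.
Mir203, annotated start, 4816 reads of 20 nt: gTGAAATGtttaggaccact
Mir203, start 1 nt later, 4177 reads of 22 nt: tGAAATGTttaggaccactaga

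The later start was the less used in the KO of each pair. It held 43.2% (38.3 to 48.2) of Mir203 3p reads in the Dnmt3L KO and 54.0% (50.5 to 57.4) in the WT at 16.5 dpc, 40.7% (39.1 to 42.3) in the Dnmt3L KO and 48.9% (47.5 to 50.3) in the WT at 10 dpp, and 31.6% (30.4 to 32.8) in the Miwi2 KO and 35.9% (34.7 to 37.2) in the Miwi2 WT. The intervals of KO and WT did not overlap in any of the 3 pairs. With reads that carry 1 added base counted in, the shares were 48.1% in the Dnmt3L KO and 59.4% in the WT at 16.5 dpc, 48.1% in the Dnmt3L KO and 55.0% in the WT at 10 dpp, and 43.6% in the Miwi2 KO and 46.6% in the Miwi2 WT, so the gaps kept their direction and the Miwi2 gap narrowed. With 1 pool a group the spread of this share between animals is unknown.

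The 3′ ends were less uniform. The shares here are of exact reads only. For Mir200b they leave out reads with an added T, which were 32.9% of its exact reads and reads with 1 added base together. Of the exact Mir200b 3p reads, 93.3% had the form below, 1 nt longer than the RefSeq sequence, and Mir141 was mainly 21 nt (88.6%).
Mir200b, 12493 reads of 23 nt: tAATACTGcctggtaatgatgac
Mir141, 1886 reads of 21 nt: tAACACTGtctggtaaagatg
Mir205 was divided between 22 and 23 nt. The 23 nt form held 55.6% of exact 5p reads in the Dnmt3L KO and 31.0% in the WT at 16.5 dpc, 64.4% in the Dnmt3L KO and 50.6% in the WT at 10 dpp, and 56.0% in the Miwi2 KO and 58.2% in the Miwi2 WT. Left out are reads of 22 matching bases and an added A. They were 35.3% of 23 nt reads of that start in the Dnmt3L KO and 47.7% in the WT at 16.5 dpc. At 10 dpp they were 15.1% in the Dnmt3L KO and 29.4% in its WT, and 20.2% in the Miwi2 KO and 17.4% in the Miwi2 WT. The length shares therefore depend on counting exact reads only. For Mir200a the 21 nt form led in the Dnmt3L libraries of 10 dpp, with 41.6% in the KO against 47.5% in the WT, and held 29.1% in the Miwi2 KO and 25.1% in the Miwi2 WT, where reads of 23 nt held 23.6% in the KO and 30.1% in the WT.

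Reads that match a hairpin up to 1 final unmatched base were counted separately and are not in the levels. For Mir200b, reads of 23 matching bases and an added T numbered 368 in the Dnmt3L KO and 153 in the WT at 16.5 dpc, 2567 in the Dnmt3L KO and 1173 in the WT at 10 dpp, and 797 in the Miwi2 KO and 1333 in the Miwi2 WT. Set against the exact 23 nt reads, they were 34.1% (31.3 to 37.1) of both together in the Dnmt3L KO and 28.5% (24.8 to 32.6) in the WT at 16.5 dpc, 38.3% (37.1 to 39.4) in the Dnmt3L KO and 32.8% (31.3 to 34.4) in the WT at 10 dpp, and 29.2% (27.5 to 30.9) in the Miwi2 KO and 31.3% (29.9 to 32.8) in the Miwi2 WT. The KO was above its WT in both Dnmt3L pairs and below it in the Miwi2 pair, and the intervals parted only at 10 dpp in the Dnmt3L pair.

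Mir203 carried an added T on reads of both starts, and those of the later start are given first. After 21 matching bases there were 55 such reads in the Dnmt3L KO and 112 in the WT at 16.5 dpc, 734 in the Dnmt3L KO and 1075 in the WT at 10 dpp, and 1688 in the Miwi2 KO and 1553 in the Miwi2 WT. They made 65.5% of the reads of that start and length in the Miwi2 KO and 60.5% in the Miwi2 WT, 52.2% in the Dnmt3L KO and 48.1% in the WT at 10 dpp, and 31.1% in the Dnmt3L KO and 25.9% in the WT at 16.5 dpc. At the later start the share was thus highest in the Miwi2 libraries and lowest before birth. At the annotated start, after 22 matching bases, it was 15.3% in the Dnmt3L KO and 6.99% in the WT at 16.5 dpc. There it was 30.8% in the Dnmt3L KO and 35.2% in the WT at 10 dpp, and 32.9% in the Miwi2 KO and 35.9% in the Miwi2 WT. At that start the Dnmt3L WT of 10 dpp stood above the Miwi2 KO.

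Mir375 carried a final G that does not match its hairpin, after 21 matching bases. Such reads numbered 1 in the Dnmt3L KO and 2 in the WT at 16.5 dpc, 9 in the Dnmt3L KO and 4 in the WT at 10 dpp, and 295 in the Miwi2 KO and 1448 in the Miwi2 WT. They were 28.6% (25.8 to 31.4) of reads of that start and length in the Miwi2 KO and 23.8% (22.7 to 24.9) in the Miwi2 WT, and at most 0.578% in the Dnmt3L libraries. Both Miwi2 libraries thus stood apart from all 4 Dnmt3L libraries, whatever the genotype.

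**Figure D5:**
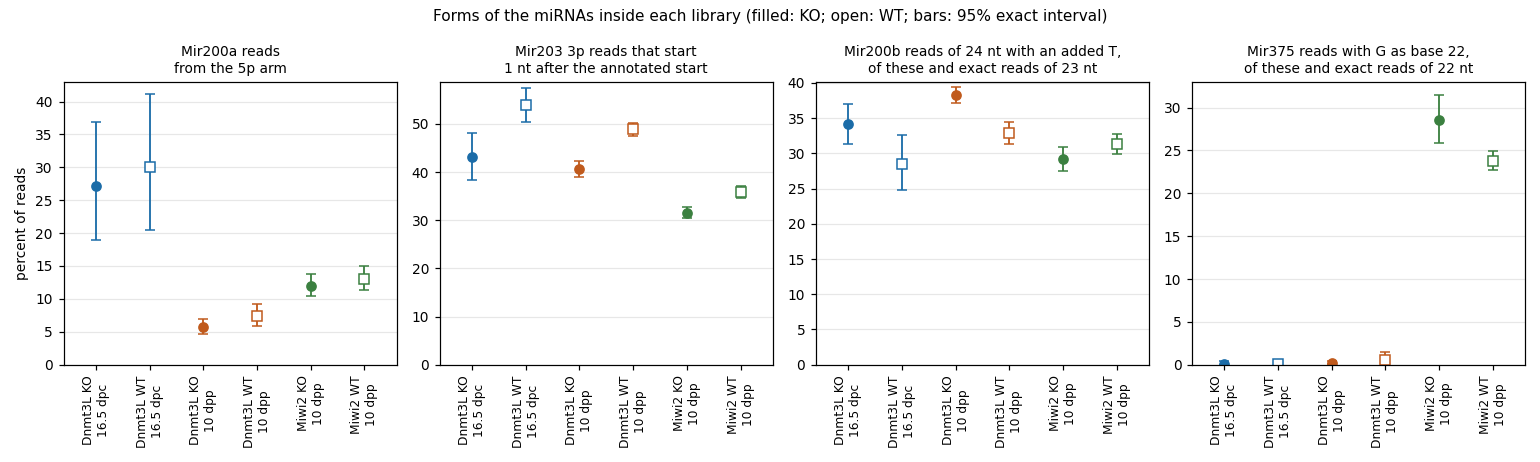
Forms of the miRNAs as a percent of reads in each library; filled points are KO and open points WT pools, with 95% exact intervals. The Mir200a 5p share parts the 3 pairs of libraries, the later start of Mir203 is lower in the KO of each pair, and a G as the last base of Mir375 stands at 28.6% in the Miwi2 KO and 23.8% in the Miwi2 WT against at most 0.578% in the Dnmt3L libraries.

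By log2 level over the 6 libraries, the genes most like each member among 379 miRNA genes with at least 1000 reads were Mir128-2 (Pearson r 0.98), Mir1839 (0.97) and Mir411 (0.97) for the family sum, Mir147 (0.99), Mir741 (0.99) and Mir34a (0.98) for Mir203, and Mir329 (0.98), Mir708 (0.96) and Mir425 (0.91) for Mir205. For Mir375 the nearest were Mir329 (0.84), Mir377 (0.80) and Mir455 (0.76), a weaker likeness. These are the highest of 379 values over 6 libraries and describe likeness only. Among the members, Mir200a and Mir200b had r = 0.95 and Mir205 and Mir375 0.78, whereas Mir200a and Mir375 had -0.08.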

How the data were processed

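Small RNA of 18 to 35 nt from whole testis (Trizol, TruSeq small RNA) was measured in 6 libraries, 1 for each group, grouped by the labels. The deposited files give each distinct read sequence with its count; the submitters' processing notes name the build mm9, and how reads were trimmed, aligned or filtered was not stated in the material used here. Reads of 18 to 26 nt were matched without mismatch to the sense strand of GENCODE vM21 miRNA genes (GRCm38), and a read shared by several genes was divided evenly. Levels are per 1e6 miRNA reads. Ratios have exact conditional binomial intervals, levels exact Poisson intervals and shares Clopper-Pearson intervals. A fold needed to pass the size limit on at least 1000 reads. With 1 library a group no p-value was computed.

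The 8 genes and the marker lists were chosen with earlier results of these data known. The text names these 8 genes, the genes of the marker lists and, for the family sum, Mir203, Mir205 and Mir375, the 3 other genes with the highest Pearson r of log2(RPM + 1). Alternatives, 10 planned and 2 added after the data were seen, changed scaling, read choice or count minimum. Counting and ratios were tested on simulated data. Python 3.11.15, numpy 2.4.6, scipy 1.17.1, matplotlib 3.10.9, R 4.3.3 and edgeR 4.0.16 (TMM factors only) were used. The miRNA reads give no check of the knockouts.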

Additional observations from a re-analysis of the deposited data

Results flagged for a closer look

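The ratio of Mir141 was above 1 in the Dnmt3L pair of 10 dpp and below 1 in the Miwi2 pair, a difference of 4.31 between the log2 ratios. For Mir375 the same difference was 5.13. Both were picked out because the pairs went opposite ways by more than 2-fold with a minimum of 100 reads. Mir200c went the same ways, at log2 ratios of 3.29 and -1.26, but had only 24 and 71 reads in the Miwi2 KO and WT. The Mir141 ratio in the Miwi2 pair is under the 1000 reads needed for a call. With 1 pool a group the differences were not tested.

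Reads antisense to the genes lie outside the levels. Mir203 had 553 of them, 8 in the Dnmt3L KO and 13 in the WT at 16.5 dpc, 141 in the Dnmt3L KO and 174 in the WT at 10 dpp, and 138 in the Miwi2 KO and 79 in the Miwi2 WT. Of these, 376 equal the mature mmu-miR-203b-3p, which RefSeq places opposite Mir203 at chr12:112130887-112130908, and 539 start where it starts. Its sequence, with bases 2 to 8 in capitals, is as follows.
mmu-miR-203b-3p: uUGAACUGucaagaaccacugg
Mir200a had 5 antisense reads, all in the Miwi2 WT.

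Mir375 reads with a G after 21 matching bases numbered 9 in the Dnmt3L KO and 4 in the WT at 10 dpp, and 295 in the Miwi2 KO and 1448 in the Miwi2 WT. They are no part of the levels and stand in both Miwi2 libraries.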

How the results depend on the processing

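No paired analysis was possible because each group has 1 library. Of 475 ratios of single genes under the alternatives, 431 kept their direction and side of the limit, 26 no longer passed it, 11 newly passed it and 7 reversed. In the Dnmt3L pair of 10 dpp the log2 ratios ranged over 2.90 to 3.34 for Mir141, 2.72 to 3.17 for Mir375 and 2.48 to 2.93 for Mir205. The members past the limit there numbered 0 with reads of 1 miRNA gene only (limit 3.23), 1 with thinned libraries (2.69) and 1 with Mir-named genes only (2.87), the last chosen after seeing the data. Other alternatives changed the calls too, because Mir205 missed the limit in most of the alternatives.

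In the Miwi2 pair 1 member passed when scaled to all reads, with TMM and without the 10 genes with most reads. Between ages 4 passed when scaled to all reads and 4 with TMM, 3 without the 10 genes with most reads (Mir375 then called lower), 1 with a count minimum of 100, and 0 with reads of 1 gene only, thinned libraries, no count minimum or Mir-named genes. Between the WT pools 1 passed with TMM.

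The family sum between ages became 3.15 when scaled to all reads and 2.78 with TMM, both past the limit. It reversed to -0.16 (all reads) and -0.70 (TMM) between the WT pools and to -0.057 in the Miwi2 pair without the 10 genes with most reads. Single genes that reversed were Mir200c between ages (0.55 to all reads, 0.19 with TMM), Mir203 (-0.056 to all reads, -0.60 with TMM), Mir200a (-0.35) and Mir200b (-0.52, both with TMM) between the WT pools, and Mir203 in the Dnmt3L pair of 10 dpp (0.035 with TMM). The median of all genes between ages was 0.29 as reported, 1.42 scaled to all reads and 1.05 with TMM, and between the WT pools 0.66, -0.05 and -0.59 in that order. The cause was not tested. Mir375 could not be evaluated from reads near an annotated mature start, and depth limits Mir200c most, with 24 to 286 reads a library.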
